A study of Mus musculus with 19 samples.

Results

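Intranasal L803mts, a peptide inhibitor of glycogen synthase kinase 3 (GSK3), was compared with intranasal siRNA against GSK3b (siGSK3b) in the mouse hippocampus, on arrays for microRNAs (miRNAs). The comparison took the 8 samples that the titles name L803mts and siGSK3b, 4 of each, out of 19 samples in all. No measured value entered the choice of samples. No probe passed the threshold for a difference between the L803mts and siGSK3b arrays.

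GSK3 is a serine/threonine kinase made from a pair of genes, and its alpha and beta forms act on many substrates, among them beta-catenin in the Wnt pathway and glycogen synthase. L803mts is a cell-permeable peptide that competes with substrates for the kinase, so it acts on the protein, whereas an siRNA lowers a protein by having its mRNA degraded. Mature miRNAs are short RNAs that guide Argonaute proteins to mRNAs and lower their translation or stability. In the mouse genome (RefSeq annotation, GRCm38.p6) Gsk3b lies at chr16:38089001-38246084 and Gsk3a at chr7:25228258-25237851. The arrays measured small RNA and hold no value for the Gsk3b mRNA, so knockdown or inhibition was not checked here.

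All samples were right hippocampus of adult male C57BL/6 mice. The siGSK3b group received 10 µg of siRNA and the L803mts group 60 µg of peptide, each as 5 µL into each nostril on alternate days over 3 days, and tissue was taken a day after the last dose. The labels of replicate 4 give 11 µg and 61 µg instead. A vehicle control group (n = 4) had the same volume on the same schedule and is set beside the 8 arrays. A dose of siRNA and a dose of peptide in micrograms cannot be matched, and no group with a non-targeting siRNA or an inactive peptide was analysed here. Which hippocampal cells took up either agent was not measured. The labels number the samples but do not say that each came from its own mouse, so each p-value rests on how these samples vary among themselves, which may be technical.

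The probes carry the maker's codes. None of them (0) matched a name in the RefSeq miRNA table, so probes are called by their codes, no miRNA lists or cell type markers could be applied, and no sequences are shown. In bulk tissue, fewer cells of a type and less RNA per cell cannot be told apart.

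The 4 siGSK3b arrays shared a slide. L803mts replicates 1, 3 and 4 shared another slide, and replicate 2 lay on a slide of its own among these 8, so slide and treatment cannot be told apart. By position on the slide, siGSK3b arrays 1 to 4 lay at A, B, C and D, and L803mts arrays 1 to 4 at A, A, C and D. Median foreground intensity was 151, 154, 158 and 167 on siGSK3b arrays 1 to 4 and 147, 115, 150 and 154 on L803mts arrays 1 to 4. L803mts replicate 2 was the dimmest of the 8. Its median signal over background was 36, against 59 to 63.7 on the other 7 arrays. It had 128 saturated spots against 165 to 182, and 4952 spots that the scanner software did not find against 3363 to 4108. Of 6 such array measures, median foreground and median background had the lowest exact permutation p between the groups (each 0.0857, adjusted 0.257, two-sided), where 4 arrays against 4 cannot go below 0.0286. Between 3240 and 3397 probes per array were detected, meaning that foreground exceeded local background by more than 2 background SDs. Where a fit without L803mts replicate 2 moved a count or difference by over 1.5 times, the value from that fit is given.

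Of 3421 probes tested, 0 (0%) differed between L803mts and siGSK3b at an adjusted p under 0.05 in limma. The lowest adjusted p was 0.0736, and 0.627 in a limma fit of the 8 arrays alone. At an unadjusted p under 0.05 there were 297 probes, of which 170 (4.97%) were higher in L803mts and 127 (3.71%) lower. On normalized levels, the L803mts arrays lay all above the siGSK3b arrays for 72 probes (2.1%) and all below for 64 (1.87%). Among these 136 probes 104 also had an unadjusted p under 0.05. Their median difference was 0.20 log2 units where L803mts was above and -0.18 where it was below. Without L803mts replicate 2 the count of calls was again 0, the lowest adjusted p was 0.176, and 250 probes had an unadjusted p under 0.05.

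**Figure D1:**
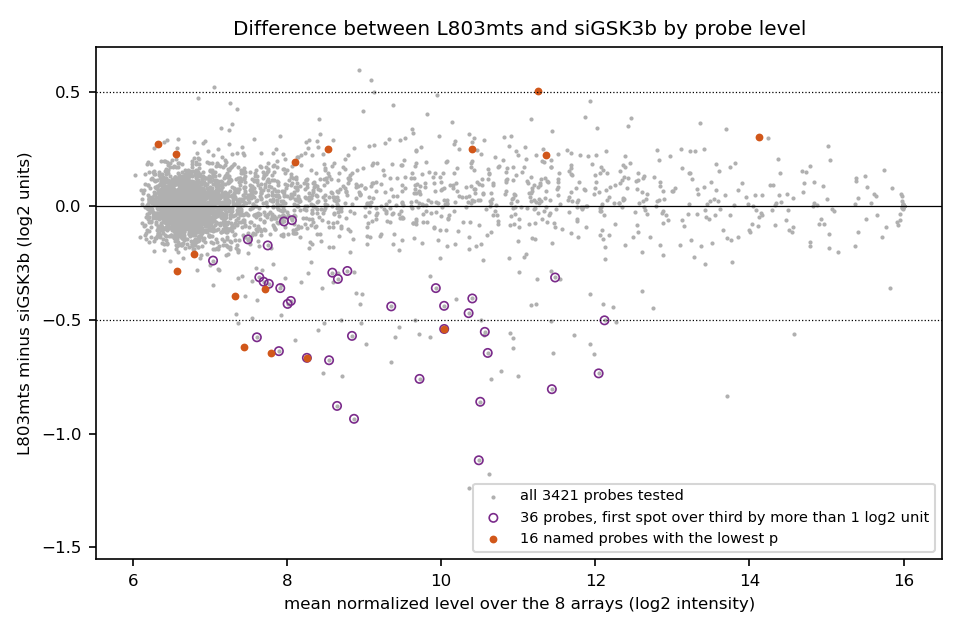
Difference between L803mts and siGSK3b (log2 units, y axis) against mean normalized level over the 8 arrays (log2 intensity, x axis) for 3421 probes, with dotted lines at 0.5 log2 units either way. With all arrays 5 probes lie above the upper line and 51 below the lower one (34 below it without L803mts replicate 2); purple rings mark the 36 probes whose first spot was brighter than the third by more than 1 log2 unit, all of which lie below 0.

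The probe with the lowest p was ORB_1210254. Its normalized log2 levels were 6.71, 6.68, 6.69 and 6.76 on siGSK3b arrays 1 to 4 and 6.41, 6.44, 6.49 and 6.37 on L803mts arrays 1 to 4. The groups did not overlap, and the difference was -0.29 (SE 0.05; 95% confidence interval -0.39 to -0.18; limma p 2.15e-05, adjusted p 0.0736). The probe was dim on all 8 arrays, with mean background-subtracted intensities of 38.7 to 46.3 in siGSK3b and 11.7 to 27.3 in L803mts. The 95th percentile of single empty spots was 13.2 to 21.4 on the siGSK3b arrays and 11.4 to 22.6 on the L803mts arrays. The difference of this probe thus depends on the background step. It was -0.46 (adjusted p 0.0269) with a smaller offset of 16 and -1.22 (adjusted p 0.00156) with plain subtraction, and both pass the threshold. Without L803mts replicate 2 the difference was again -0.29, with an adjusted p of 0.176. On the control arrays it stood at 6.63 to 6.84.

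Probe 3282 was the next of the lower probes. Its levels were 7.57, 7.57, 7.48 and 7.50 in siGSK3b and 7.31, 6.88, 7.25 and 7.09 in L803mts. No L803mts array reached the siGSK3b arrays, and replicate 2 was the lowest. The difference was -0.40 (SE 0.08, limma adjusted p 0.102) with replicate 2 and -0.32 (adjusted p 0.176) without it. The control arrays lay above both groups, at 7.74 to 7.91.

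The other 6 lower probes among the 8 with the lowest p had differences of -0.21 to -0.67 and limma adjusted p-values of 0.415 each. Probe 2883 had the widest of these differences. Its levels were 8.77, 8.61, 8.55 and 8.44 in siGSK3b and 8.31, 7.12, 8.05 and 8.22 in L803mts. The groups did not overlap, and replicate 2 lay more than 0.5 log2 units below the other L803mts arrays. The difference of -0.67 became -0.40 without that replicate. Probe 2869 gave 10.46, 10.41, 10.20 and 10.16 in siGSK3b against 10.21, 9.18, 9.82 and 9.86 in L803mts. Replicate 2 was again the lowest and replicate 1 lay within the siGSK3b range. Its difference was -0.54 with replicate 2 and -0.35 without it. Probes ORB_1112398 and 3073 were also lowest in replicate 2 among the L803mts arrays, with that replicate at 6.85 and 6.52 against 7.50 to 7.91 and 7.18 to 7.55 on the other L803mts arrays. Their differences of -0.65 and -0.62 became -0.44 and -0.42 without it. Probe 2217 differed by -0.37 and overlapped between the groups. Probe ORB_0511150 differed by -0.21, with no overlap.

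Among the higher probes, ORB_1210600 had the lowest p. Its levels were 7.97, 8.02, 8.05 and 8.01 in siGSK3b and 8.23, 8.21, 8.21 and 8.18 in L803mts. After normalization between arrays the groups did not overlap. Before it, L803mts replicate 2 read 145 above background, below the siGSK3b arrays at 192 to 202, and the difference without that normalization was 0.10. The difference was 0.20 (SE 0.04; 95% confidence interval 0.12 to 0.28; limma adjusted p 0.102), a ratio of 1.15, and was again 0.20 without replicate 2. The control arrays, at 7.99 to 8.09, overlapped the siGSK3b range. In the authors' deposited table this probe read 194, 199, 199 and 190 in siGSK3b and 228, 227, 226 and 227 in L803mts.

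Probe ORB_0511181 had the largest difference among the 8 higher probes with the lowest p. Its levels were 11.30, 10.87, 10.81 and 11.05 in siGSK3b and 11.59, 11.54, 11.45 and 11.48 in L803mts. All L803mts arrays lay above all siGSK3b arrays, and the control arrays at 10.89 to 11.25 overlapped siGSK3b only. The difference was 0.51 (SE 0.12, limma adjusted p 0.398). Before normalization between arrays the 3 spots of replicate 2 read 1659 to 1990, within the siGSK3b range of 1436 to 2705, while the other L803mts arrays read 2436 to 3815. Of the other 6 higher probes, 5 had differences of 0.23 to 0.30 and limma adjusted p-values of 0.415 each, and ORB_0510252 is described last. Of the 6, ORB_0510252, ORB_1210471, ORB_0608066 and 2181 had groups that did not overlap after normalization between arrays, and 2909 and IGN_orb_0408059 overlapped. Before normalization, the lowest L803mts array read below every siGSK3b array for ORB_1210471, at 198 above background against 250 to 299. The same held for ORB_0608066 (1872 against 2266 to 2534) and 2181 (886 against 1182 to 1329). Probe ORB_0510252 was detected on 1 of the 4 siGSK3b arrays and on 4 of the L803mts arrays. Its background-subtracted intensities were 3.67 to 14.3 in siGSK3b and 10.7 to 32.0 in L803mts, and its fitted difference ran from 0.13 to 2.10 over the settings tried, so its size is not settled.

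**Figure D2:**
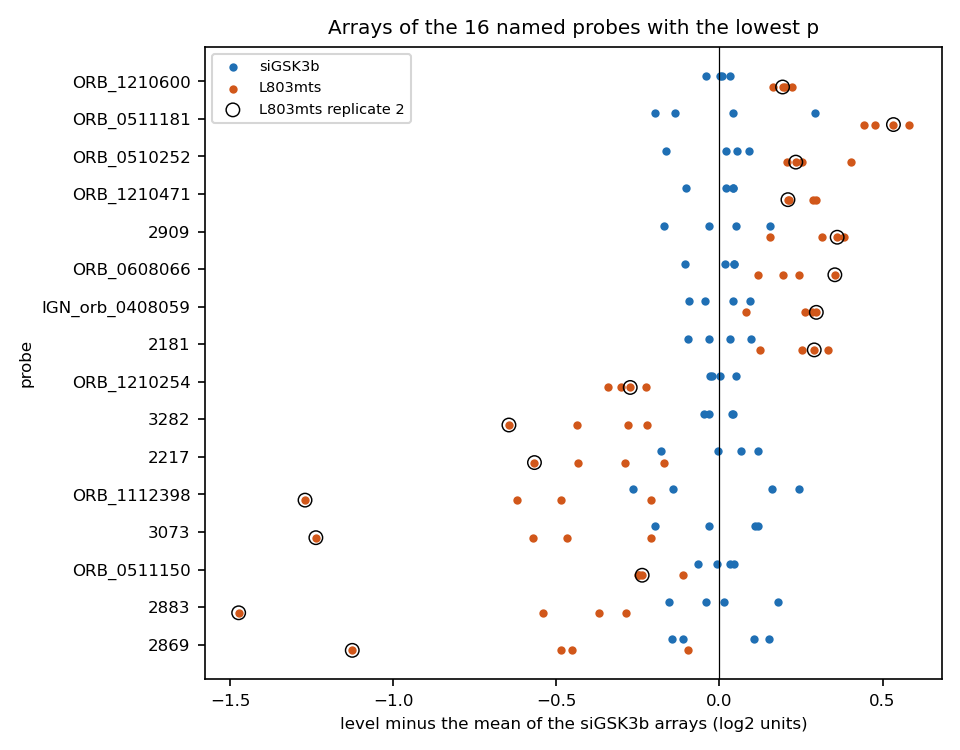
Levels of the 16 probes with the lowest p, 8 higher and 8 lower in L803mts, on each of the 8 arrays, as the difference from the siGSK3b mean (log2 units, x axis); points are arrays, and L803mts replicate 2 is ringed. Replicate 2 lies lowest of its group for the lower probes 3282, 2217, ORB_1112398, 3073, 2883 and 2869, and narrowly so for the higher probe ORB_1210471.

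The width of the intervals shows which sizes of difference the fit leaves possible on the normalized log2 scale, which includes the offset of 50. The median SE of a difference was 0.079 log2 units and the median half-width of its 95% confidence interval was 0.167. For 3201 probes (93.6%) the interval lay within 0.5 log2 units either way, and for 3353 (98.0%) within 1 log2 unit. These intervals are unadjusted, and they cover the spread between arrays, not the difference between slides. The counts include saturated probes, where a difference is not measured. They also include dim probes such as ORB_1210254, whose interval lay within 0.5 although plain subtraction gave a difference of -1.22. The median size of a difference over all probes was 0.062. Under plain background subtraction, in place of the model-based correction with an offset, 1529 intervals lay within 0.5 and 2837 within 1. Differences beyond 0.5 were seen for 56 probes, 5 higher and 51 lower in L803mts. Without L803mts replicate 2 there were 6 higher and 34 lower. The higher count was 2 without siGSK3b replicate 2, 3 without siGSK3b replicate 3, 9 without L803mts replicate 4 and 11 without L803mts replicate 3. Beyond 1, there were 4 probes lower and 0 higher, with 7 lower without L803mts replicate 1 or 3 and 2 without replicate 4.

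The 3 highest differences did not stand apart from the spread of their arrays. Probe 2135 gave 8.50, 7.99, 8.35 and 9.69 in siGSK3b and 9.19, 9.39, 9.08 and 9.26 in L803mts, a difference of 0.60 (limma adjusted p 0.697). Replicate 4 of siGSK3b was above every L803mts array, and the difference was 0.95 without it. Probe 2132 had the same order of groups, with siGSK3b replicate 4 at 9.64 against 8.44 to 8.75 on the other siGSK3b arrays, and a difference of 0.55 (adjusted p 0.697), or 0.83 without that replicate. Probe ORB_0511401 differed by 0.52 (adjusted p 0.733). Its L803mts replicate 4 read 9.00 against 6.63 to 6.84 on the other L803mts arrays, which overlapped the siGSK3b arrays at 6.72 to 6.90. Without replicate 4 the difference was -0.04.

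In the 3 lowest differences L803mts replicate 4 lay far below the other L803mts arrays. For IGN_orb_0408010 the siGSK3b arrays read 12.89, 13.33, 12.25 and 13.50 and the L803mts arrays 12.27, 13.07, 12.82 and 8.00. The difference was -1.45 (SE 1.10; 95% confidence interval -3.78 to 0.88; limma adjusted p 0.780). Probe 2324 read 10.42, 11.19, 10.48 and 11.81 in siGSK3b and 10.00, 10.69, 10.72 and 7.54 in L803mts, a difference of -1.24 (adjusted p 0.693). Probe ORB_1210710 differed by -1.18 (adjusted p 0.694), with replicate 4 at 8.05 and the other L803mts arrays at 10.28 to 10.94. Without replicate 4 the differences were -0.27 for IGN_orb_0408010, -0.51 for 2324 and -0.52 for ORB_1210710. On the control arrays these 3 probes were split in the same way. For IGN_orb_0408010 control replicate 1 read 13.05 and replicates 2, 3 and 4 read 9.67, 8.07 and 8.10.

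In all, 13 probes lay more than 1 log2 unit below the other 3 L803mts arrays in replicate 4, and for all 13 the 4 siGSK3b arrays lay above it. They were 1094, 1489, 1490, 2324, 2990, IGN_orb_0408010, ORB_1210015, ORB_1210296, ORB_1210403, ORB_1210710, ORB1046, ORB1101 and ORB1143. Replicate 4 also had 1 probe that far above the others. The 13 were listed after their values were seen, and the list has no test. In replicate 2 of L803mts 21 probes lay that far below the other 3 arrays, and 3 above. Replicate 1 had 4 above, and siGSK3b replicates 3 and 4 had 3 above each. No probe lay that far from its group in siGSK3b replicates 1 and 2 or in L803mts replicate 3.

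The probes that spread most within the groups fell into 2 sets by eye. The SD within groups, pooled over the 5 groups of the series, had a median of 0.114 log2 units over all probes. It exceeded 1 for 3 probes (IGN_orb_0408010, 2324 and ORB_1210710) and 0.5 for 43. The next 3 were ORB_0510203, ORB_0511130 and ORB_1112405, with SDs of 0.938, 0.900 and 0.891. Probe ORB_0510203 read 10.73, 11.43, 12.52 and 10.32 in siGSK3b and 9.76, 10.67, 11.52 and 10.54 in L803mts. It was highest in replicate 3 of both groups, and its difference of -0.62 had a limma adjusted p of 0.836. ORB_0511130 and ORB_1112405 were also highest in replicate 3 of both groups.

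**Figure D3:**
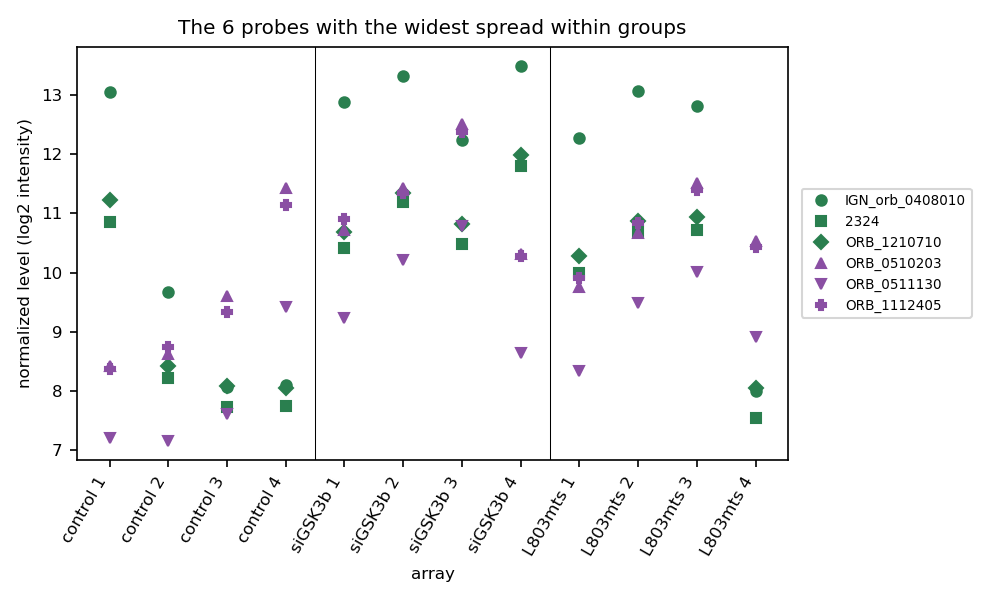
Normalized level (log2 intensity, y axis) on each control, siGSK3b and L803mts array (x axis) of the 6 probes with the widest spread within groups. Green symbols (IGN_orb_0408010, 2324, ORB_1210710) are low on control 2 to 4 and on L803mts 4; purple symbols (ORB_0510203, ORB_0511130, ORB_1112405) are highest on siGSK3b 3.

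Distances between whole arrays overlapped within and between the groups. The root mean square difference over 3421 probes had a median of 0.198 log2 units between pairs of siGSK3b arrays (0.160 to 0.247), 0.253 between pairs of L803mts arrays (0.217 to 0.306) and 0.253 between a siGSK3b and an L803mts array (0.164 to 0.302). Without L803mts replicate 2 the last 2 medians were 0.236 and 0.233. L803mts replicate 3 lay nearer to each siGSK3b array (0.164 to 0.191) than to any other L803mts array (0.217 to 0.268). Replicate 2 lay at 0.283 to 0.302 from the siGSK3b arrays and 0.268 to 0.306 from its own group. The median SD of a probe was 0.097 in siGSK3b and 0.115 in L803mts, or 0.099 without replicate 2. The SD among the 3 spots of a probe on an array, before normalization between arrays, had a median of 0.137. It is a spread of single spots, whereas the SDs between arrays are of means of 3 spots after normalization. Their sizes cannot be compared directly.

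**Figure D4:**
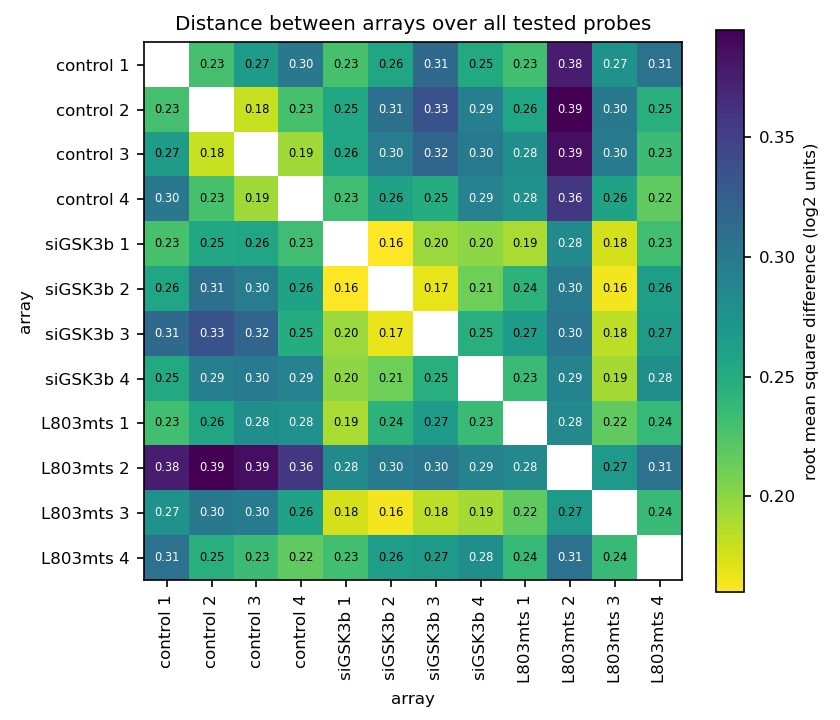
Root mean square difference in log2 units between each pair of control, siGSK3b and L803mts arrays over all tested probes (both axes list arrays; darker is farther apart). L803mts 3 is 0.164 to 0.191 from the siGSK3b arrays, and L803mts 2 is the farthest of the 8 arrays from every control array.

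Set beside the vehicle control, the limma fit called 21 probes higher (0.614%) and 64 lower (1.87%) in L803mts, and 4 probes higher (0.117%) in siGSK3b. Leaving out L803mts replicate 2 moved the siGSK3b calls too, to 10 higher and 21 lower. Both the spread shared by the groups and the normalization between arrays change in that fit, and the part of each was not tested. Without L803mts replicate 3 there were 37 probes higher in L803mts. Leaving out a siGSK3b array in turn gave 0 to 2 higher in siGSK3b, with 0 without replicate 3 or 4, 1 without replicate 2 and 2 without replicate 1. Both comparisons use the same control arrays, and the probes were chosen with the L803mts or siGSK3b arrays, so the values that follow are a description. The 64 probes lower in L803mts had median differences from control of -0.65 in L803mts and -0.38 in siGSK3b, and L803mts lay below siGSK3b by a median of 0.33 on the log2 scale (median difference -0.33). For 19 of the 64 all L803mts arrays were below all siGSK3b arrays, which held for 1.87% of all probes tested. The 21 probes higher in L803mts had medians of 0.37 in L803mts and 0.22 in siGSK3b. For 6 of them all L803mts arrays were above all siGSK3b arrays, which held for 2.1% of all probes tested. The 4 probes called in siGSK3b, ORB_0510134, ORB_0510307, ORB_0511082 and ORB_1210051, had medians of 0.40 in L803mts and 0.35 in siGSK3b. All 4 overlapped between the treatments, as did 3285 of the 3421 probes tested. A call in 1 treatment and not in the other does not show that they differ, and the direct test above called 0 probes.

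ORB_1210051 was bright and stood above control after both agents. Its levels were 14.56, 15.25, 15.18 and 15.02 in siGSK3b, 14.37, 15.61, 14.76 and 14.96 in L803mts and 13.33, 13.48, 13.55 and 13.90 in control. The treated arrays overlapped each other and lay above all control arrays. The difference between treatments was -0.08 (95% confidence interval -0.62 to 0.47; limma adjusted p 0.969), or -0.31 without L803mts replicate 2. Probe ORB_0511275 read 11.49, 11.84, 11.75 and 11.59 in siGSK3b and 11.15, 13.55, 11.87 and 11.67 in L803mts, with control at 10.43 to 10.89. Replicate 2 of L803mts was the highest by more than 1 log2 unit. The difference of 0.39 (adjusted p 0.819) was -0.11 without it.

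ORB_1112497 stood below control after L803mts. It read 11.19, 11.10, 10.95 and 10.94 in siGSK3b, 10.51, 8.20, 10.47 and 10.54 in L803mts and 11.82, 11.65, 11.32 and 11.16 in control. L803mts lay below both other groups with no overlap, and siGSK3b replicate 1 lay inside the control range. The difference between treatments was -1.12 (SE 0.37, limma adjusted p 0.42), or -0.54 without L803mts replicate 2.

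Several of the lower probes did not read alike at their 3 spots. On siGSK3b arrays the 3 spots of 2869, in file order, read 1860 to 2431, 1088 to 1312 and 616 to 848 above local background. On L803mts arrays they read 425 to 2310, 320 to 1291 and 260 to 855, and the lowest value at each spot was in replicate 2. Probes 2869 and 2883 read lower at each later spot on every siGSK3b and L803mts array. Over the 8 arrays the first spot exceeded the third by a mean of more than 1 log2 unit for 36 of 3421 probes (1.05%). All 36 had a difference below 0 between L803mts and siGSK3b, with a median of -0.44, against 0.007 over all probes tested. Of the 36, 28 (77.8%) were lower at an unadjusted p under 0.05 in limma, against 127 (3.71%) of all 3421. Without L803mts replicate 2 the median of the 36 was -0.21. In that fit 17 of them were lower at an unadjusted p under 0.05, against 95 of all 3421.

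These 28 made up 22.0% of the 127 probes lower at an unadjusted p under 0.05, and 0 of the 170 higher probes showed the pattern. It held for 23 (35.9%) of the 64 probes lower in L803mts than control and for 14 (66.7%) of the 21 probes low in replicate 2, but for 0 of the 13 probes low in replicate 4. In the files, the probe listed just before ORB_1112497 was saturated, as were those before 2869 and 3073. That was so for 64 probes (1.87%) of all tested and for 7 (5.51%) of the 127. The part of spot order in these differences was not tested. When the 36 probes were left out, 99 lower and 170 higher probes remained at an unadjusted p under 0.05 in the same fit, and a refit without them called 0.

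**Figure D5:**
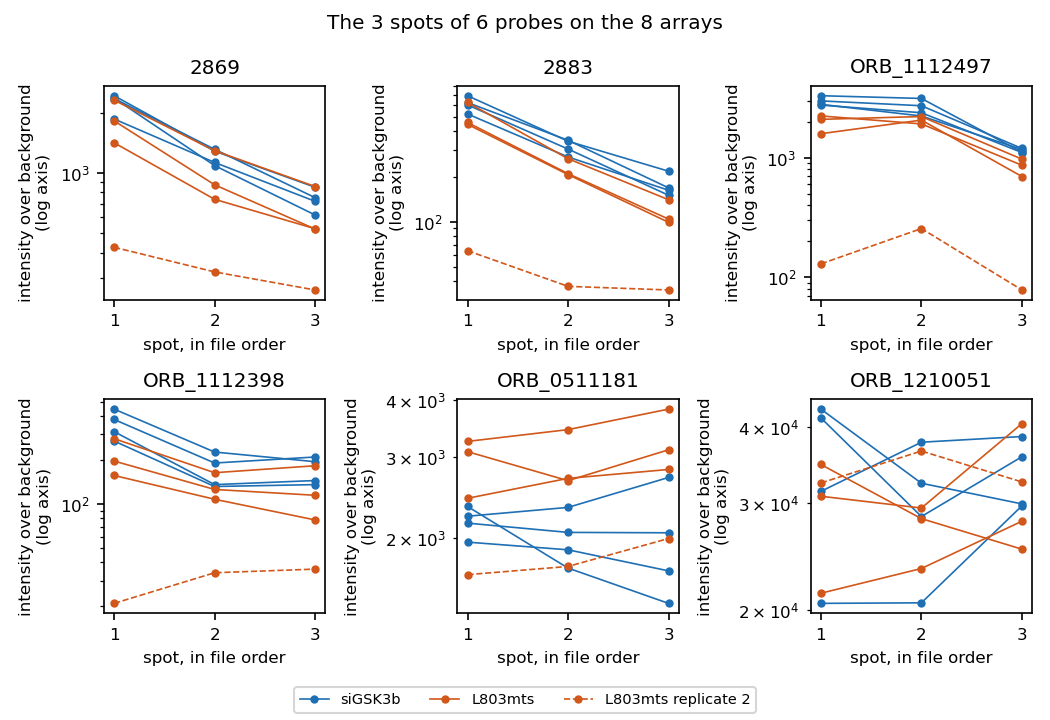
Background-subtracted intensity (log axis) at the 3 spots of 6 probes, in file order (x axis), with a line per array; L803mts replicate 2 is dashed. Probes 2869 and 2883 fall from spot to spot on all 8 arrays, while ORB_0511181 and ORB_1210051 show no common order.

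Each array was printed in 8 blocks, and the direction of the differences varied with the block. Block 8 held 42 higher and 3 lower probes at an unadjusted p under 0.05, and its median difference was 0.06. Block 2 held 10 higher and 38 lower, and block 3 held 16 and 29, with medians of -0.03 each. Without L803mts replicate 2 block 2 held 17 higher and 19 lower. Without siGSK3b replicate 2 block 8 held 28 higher and 3 lower. The 36 probes with a brighter first spot lay mostly in blocks 1 to 3, which held 32 of them and 37.5% of the tested probes. Of the 21 probes low in L803mts replicate 2, 20 lay there. The part of the print block in the probe differences was not tested beyond the centring of block medians given in the closing section.

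The brightest probes could not be compared at their full level. The 6 with the highest mean level (1044, 2245, ORB_1112368, 2983, 2907 and 1021) were saturated at every spot of the 8 arrays, so a difference there is not measured. The 6 brightest probes without a saturated spot, a set chosen after saturation was seen, were 2908, 2282, ORB_0608090, 3192, 2074 and ORB_1210479. Their levels were 15.02 to 15.89, and L803mts and siGSK3b differed by -0.11 to 0.13, or by -0.05 to 0.05 without L803mts replicate 2. Their 95% confidence intervals lay between -0.36 and 0.38.

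The authors' deposited table of processed values holds 747 of the probes. Of these, 0 (0%) differed between L803mts and siGSK3b at a limma adjusted p under 0.05 in that table, 47 (6.29%) had an unadjusted p under 0.05, and the lowest adjusted p was 0.527. In the limma fit of the scanner values, 59 of the same 747 probes were higher and 14 lower at an unadjusted p under 0.05 (9.77% together). Of the 2674 probes outside the table, 111 were higher and 113 lower (8.38% together). The median difference in the scanner values was 0.028 over the 747 probes and 0.001 over the others. In the deposited table it was -0.012, so the direction over the 747 probes differed between the 2 sources. The 37 probes of the table whose groups did not overlap in the scanner values included ORB_1210600.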

How the data were processed

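Per the labels' protocols, small RNA was isolated by ultrafiltration from TRIzol extracts and labelled with a single dye; the protocols also mention sequencing, but the deposited values are array values. Per the file headers, the deposited scanner files hold GenePix Pro 4.1.1.4 intensity values for whole slides of 4 arrays, and only the 8 blocks of each sample's array were used. For 747 probes, the authors' deposited table holds processed intensity values; its 4778 decimal cells were multiplied by 1000, which matched them to the scanner values. The sources used here do not give how the authors normalized or centred it.

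Background was corrected with normexp (offset 50) in limma 3.58.1 under R 4.3.3 (with data.table, release 1.17.8, for reading). The 3 spots of a probe were averaged on the log2 scale after leaving out 40 control spots per array, and arrays were quantile normalized. Spots that the scanner software did not find were kept in these averages, and only spots flagged as bad were left out. Of 3432 probes, 3421 were detected on at least 3 arrays. The background SD came from each array's local backgrounds, since no spot-wise SD was used. Means of 5 groups were fitted over all 19 arrays with empirical Bayes moderation, and two-sided p-values were adjusted by Benjamini-Hochberg over the probes. On simulated data for L803mts against siGSK3b (3421 probes, 200 changed), 80.5% were recovered at 0.5 log2 units, with 17 false among 178 calls, and 96% at 1 log2 unit, with 11 false among 203. The simulated noise was normal and independent for each probe, and changes were added after background correction, to probes taken at random. The simulation held no slide effect and no outlying arrays, so these shares need not hold for the real arrays. The number of arrays limits the precision.

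Named probes are the 8 higher and the 8 lower with the lowest p, the 3 highest and 3 lowest differences, the 6 with the highest level, and 4 named in earlier results, of which 3 are described. Samples, probes and lists were chosen with earlier results of these data known. Alternatives varied normalization, background, filter, samples, blocks and replicates left out.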

Additional observations from a re-analysis of the deposited data

Results flagged for a closer look

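Within each group of 4 arrays, the highest and lowest arrays were checked for a gap to the others that was wide for the range (Dixon's criterion) in 32 named probes and 6 array measures. Of 76 such checks 8 stood out. A rate of 1 in 20 would give 3.8. That rate does not apply here, since the probes were named from these same values and the array measures are related. No explanation was tested.

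L803mts replicate 2 stood apart in its median signal over background of 36, in probe ORB_1112497, which read 8.20 against 10.47 to 10.54 on the other L803mts arrays, and in ORB_1210479, at 15.02 against 15.43 to 15.47. L803mts replicate 4 stood apart in IGN_orb_0408010, at 8.00 (7.995) against 12.27 to 13.07, in ORB_0511401, at 9.00 (9.003) against 6.63 to 6.84, and in ORB_0511150, at 6.79 against 6.65 to 6.67. L803mts replicate 1 stood apart in IGN_orb_0408059, at 6.53 (6.526) against 6.71 to 6.74. Replicate 3 of siGSK3b stood apart in ORB_1210471, at 8.31 (8.306) against 8.43 to 8.45.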

How the results depend on the processing

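Of 30 alternative settings for the direct comparison, 27 again called 0 probes and 3 called 1 probe, lower in L803mts. A smaller normexp offset of 16 called ORB_1210254 (difference -0.46, limma adjusted p 0.0269), and so did plain background subtraction (-1.22, adjusted p 0.00156). Centring the medians of the print blocks called 3282 (-0.32, adjusted p 0.0479). Leaving out each of the 8 arrays in turn called 0 probes (lowest to highest, 0 to 0), and so did each such fit of the authors' deposited table. Of 3421 probes, 168 had an unadjusted p under 0.05 under median scaling and 378 without L803mts replicate 3. Of the 747 in the authors' table, 32 to 75 did with an array left out. Leaving out the spots that the scanner software did not find left 2629 probes to test. Of these, 115 had an unadjusted limma p under 0.05 and 0 were called. With the replicate block the count of calls was 0, with 318 probes at an unadjusted p under 0.05; in the authors' table it was 0 with 52. Deviations of same-numbered arrays correlated at 0.29, -0.05, 0.14 and -0.13, and those of differently numbered arrays at -0.31 to 0.21. Whether the numbers pair the samples is not settled by these values. With slide as a random block (correlation 0.0158) the count was 0 and the lowest limma adjusted p 0.098. That correlation rests on L803mts, the only group spread over slides, so the fit cannot remove a slide difference between the treatments. With array position as a block the count was 0 and the lowest limma adjusted p 0.237, with 272 probes at an unadjusted p under 0.05. A fit of the 8 arrays alone gave 0 calls and a lowest limma adjusted p of 0.627. Under plain subtraction 1529 intervals lay within 0.5 log2 units instead of 3201; the cause was not tested. Of the 32 named probes that were not saturated, 25 kept their sign under every setting run, ORB_1210254 between -0.20 and -1.22 and ORB_0511181 between 0.37 and 0.66; ORB_0511401, ORB_1210051, ORB_0511275, 2908, 2282, ORB_0608090 and 2074 changed sign under at least 1. The settings that took the authors' probes' scanner values, 1 spot per probe (spot 1 or spot 3), or left out the 36 probes were chosen after seeing the data. The median over all probes lay between -0.02 and 0.03, except for -0.09 without normalization between arrays. Dim probes and saturated probes limit what the arrays can show.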
